A study of Mus musculus with 6 samples.

Results

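The interleukin 4 receptor gene Il4ra, its partner Il13ra1, the transcription factor gene Stat6, the macrophage markers Retnla, Mgl2 and Chil3, and the chemokine genes Ccl17, Ccl22 and Ccl24 are described here in mouse heart cells after myocardial infarction (MI). They were picked by gene symbol as parts or known products of one pathway, and all 9 were found among the 17714 genes of the deposited table. The choice was made with the sham and MI values of these libraries already known. Those values are therefore given for the 9 genes as a description, with no p-value, and nothing is read from where they fall against a threshold. The question put to them was whether classical markers of alternative activation moved together. The other gene lists below were also chosen with earlier results of these data known. Their counts and p-values are a description and not an independent test.

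Interleukin 4 binds a receptor built on the alpha chain that Il4ra encodes, paired either with the common gamma chain (Il2rg) or with the chain encoded by Il13ra1, which also lets the receptor bind interleukin 13. Janus kinases on these chains phosphorylate STAT6, which enters the nucleus and switches on target genes. In mouse macrophages the targets include Retnla, Chil3 and Mgl2 and chemokines that draw type 2 lymphocytes and eosinophils, a state called alternative activation and studied in tissue repair.

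The study sequenced RNA from wild-type mouse cells labelled lymphatic endothelial cells of the heart, in 3 libraries from sham operation and 3 from MI, all labelled day 3. The protocol text names both whole heart tissue and primary cardiac endothelial cells as sources, without assigning either to these libraries, and gives culture in medium with serum. No label states that the libraries of a group came from separate animals, so the SE and p-values given here measure the spread between these libraries, which may be technical. Over genes with enough counts, pairs of sham libraries differed by a chi-square of 1.55 to 1.79 per gene, where 1 is counting noise alone. MI libraries 2 and 3 differed by 4.28, and MI library 1 stood apart from both, at 37.3 and 22.5. The excess over 1 grows with depth, and the MI libraries were deeper, so sham and MI values cannot be compared directly. Sex, age and strain were not given in the labels used here.

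The sham libraries held 3206373 to 3591135 counts and the MI libraries 21154200 to 21689212, so a low gene was measured less precisely in sham. In CPM, which are counts scaled to the effective size of each library, 8 lymphatic endothelial markers summed to 517 to 532 in sham and 275 to 286 in MI. Pdpn, also made by other cells, rose and made up 196 to 209 CPM of the MI sum. The 7 others all fell and summed to 513 to 526 CPM in sham and 75.3 to 79.7 in MI. Of these, Lyve1, also in the resident macrophage list below, had means of 214 CPM in sham and 12.5 in MI. Prox1, which defines the lymphatic lineage, stood at 7.12 CPM in sham and 1.26 in MI. In the same libraries 12 macrophage markers summed to 4385 to 4599 CPM in sham and 19593 to 22534 in MI, 10 pan-endothelial markers to 8023 to 8111 and 1801 to 1856, and 8 cardiomyocyte markers to 2320 to 2381 and 109 to 136. Among fibroblast markers the 3 collagen genes rose, from 488 to 512 CPM summed in sham to 1729 to 1790 in MI, and the 4 others, Dcn among them, fell from 761 to 795 to 143 to 166. The libraries thus held RNA of several cell types in changing proportion, and in such bulk samples fewer cells of a type cannot be told apart from less RNA per cell. Of the 13370 genes with enough counts to be fitted in edgeR, 73.3% passed the threshold (a Benjamini-Hochberg adjusted p below 0.05): 36.4% were higher in MI and 36.9% lower.

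Against that background, 8 of the 9 genes had enough counts to be fitted, and 5 were counted as higher in MI and 3 as lower by that rule; since these values chose the genes, the count is given only beside the background. Both receptor chains, Stat6, Chil3 and Ccl22 stood higher, while Retnla, Mgl2 and Ccl24 stood lower. The classical markers did not share a direction: their log2 fold changes (MI minus sham) ran from -7.04 for Retnla to 7.59 for Chil3. Levels in TPM, which correct for gene length and depth, did not overlap between the groups for 8 of the 9 genes, against 75.6% of all genes fitted, and only Ccl17 overlapped. Without MI library 1 the 8 log2 fold changes kept their signs, from -6.79 for Retnla to 7.63 for Chil3.

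**Figure D1:**
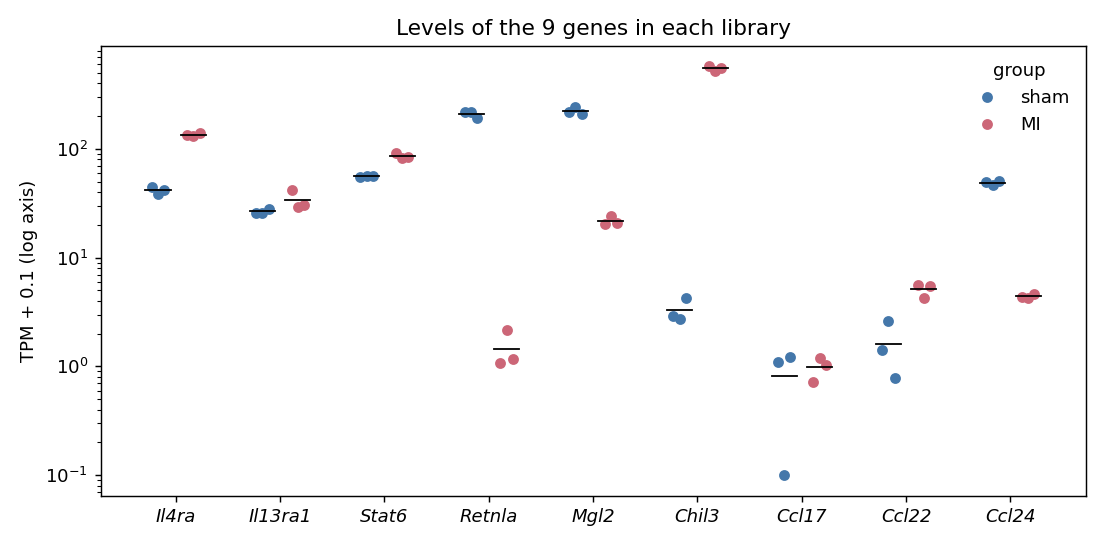
TPM of the 9 genes in each of the 3 sham and 3 MI libraries, on a log axis after adding 0.1; each point is 1 library and the short lines are group means. Retnla, Mgl2 and Ccl24 lie lower in MI, Chil3 lies higher from 2.61 to 4.18 TPM in sham to 522.68 to 573.73 in MI, and the Ccl17 points of both groups overlap.

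Promoter sequence is shown for the 3 genes among the 9 in which a palindromic STAT motif was found, because they did not share a direction: Retnla was lower in MI, Chil3 higher, and Ccl17 barely detected. The sequences are the 250 bases before the RefSeq transcription start in GRCm38.p6, 5′ to 3′ on the strand of the gene, with matches to TTCNNNNGAA (the spacing STAT6 is known to prefer) or TTCNNNGAA (the spacing of other STAT factors) in capitals. The Retnla window is chr16:48842359-48842608, plus strand. The Chil3 window is chr3:106167565-106167814, minus strand. The Ccl17 window is chr8:94810203-94810452, plus strand. It lies within the span of that gene, which begins at base 94809380, so it precedes a start inside the gene. Chil4, a near copy of Chil3, is added for comparison, at chr3:106219480-106219729, minus strand.
Retnla: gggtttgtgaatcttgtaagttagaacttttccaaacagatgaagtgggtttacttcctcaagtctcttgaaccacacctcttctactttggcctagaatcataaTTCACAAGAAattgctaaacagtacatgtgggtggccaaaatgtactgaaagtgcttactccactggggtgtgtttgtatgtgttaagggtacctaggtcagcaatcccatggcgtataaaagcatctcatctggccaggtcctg
Chil3: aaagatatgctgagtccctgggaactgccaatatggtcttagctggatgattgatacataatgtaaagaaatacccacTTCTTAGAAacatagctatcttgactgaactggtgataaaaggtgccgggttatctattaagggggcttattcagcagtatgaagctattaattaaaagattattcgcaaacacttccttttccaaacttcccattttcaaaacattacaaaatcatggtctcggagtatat
Ccl17: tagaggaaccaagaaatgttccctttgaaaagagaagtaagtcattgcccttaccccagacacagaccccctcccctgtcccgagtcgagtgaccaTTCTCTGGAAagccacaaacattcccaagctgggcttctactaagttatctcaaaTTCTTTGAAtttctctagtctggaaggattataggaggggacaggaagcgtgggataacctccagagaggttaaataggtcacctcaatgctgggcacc
Chil4: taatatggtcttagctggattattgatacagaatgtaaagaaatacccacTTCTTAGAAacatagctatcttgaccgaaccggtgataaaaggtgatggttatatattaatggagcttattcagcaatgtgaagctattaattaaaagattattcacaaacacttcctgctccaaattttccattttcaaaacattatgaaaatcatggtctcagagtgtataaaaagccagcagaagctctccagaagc
Retnla held TTCACAAGAA, 145 to 136 bases before the start. Chil3 held TTCTTAGAA, 172 to 164 bases before it, and Chil4 had the same 9 letters 200 to 192 bases before its own start. Ccl17 held TTCTCTGGAA at 154 to 145 bases and TTCTTTGAA at 99 to 91 bases before its internal start. The Chil3 and Chil4 windows were identical at 201 of 221 aligned bases (91%), with 58 gap positions. Each motif is its own reverse complement in form, so a match counts on both strands, and no match of one overlapped a match of the other in these windows. TTCNNNNGAA occurred in 5.85% of 32851 windows of the same length and TTCNNNGAA in 7.02%. The windows of Il4ra, Il13ra1, Stat6, Mgl2 and Ccl22 held neither string in these 250 bases, and that of Ccl24 was not used here. A match is a run of letters and not a measured binding site.

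Among the receptor genes, Il4ra (Entrez 16190, 7:125552271-125579474 in GRCm38.p6) encodes the chain shared by both forms of the receptor. Its level was 44.6, 38.3 and 41.4 TPM in sham libraries 1 to 3 and 133, 131 and 139 TPM in MI libraries 1 to 3. Every MI library was above every sham library, with little spread within either group. This gave a log2 fold change of 1.86 ± 0.09 (SE, 3 libraries a group), or 3.63 times as high in MI. No strand setting was given for the counting, and an antisense transcript, Gm44876, overlaps Il4ra by 1342 bases, so reads of the pair cannot be told apart there.

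Il13ra1 (Entrez 16164, X:36112108-36171262), the chain that also serves interleukin 13, was the least changed of the 8. It measured 25.7, 25.8 and 28.0 TPM in sham and 42.0, 29.1 and 30.3 TPM in MI. The groups did not overlap, but the highest sham and lowest MI libraries lay close together, and MI library 1 stood above the other MI libraries. The log2 fold change was 0.50 ± 0.12 (SE), and with libraries scaled by total counts in place of TMM it was 0.15 ± 0.12. Without MI library 1 it was 0.40.

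The receptor chains shifted in proportion to one another. TPM of Il13ra1 were 0.642 ± 0.0568 of those of Il4ra in sham and 0.252 ± 0.0545 in MI (SD, 3 libraries each), with no overlap. Il2rg, the common gamma chain of the first receptor form, rose by 1.14 ± 0.09 on the log2 scale (SE, quasi-likelihood test in edgeR, Benjamini-Hochberg adjusted p = 2.4e-07). TPM of Il4ra relative to Il2rg were 0.380 ± 0.0196 in sham and 0.587 ± 0.0151 in MI, while those of Il13ra1 relative to Il2rg were 0.243 ± 0.0187 and 0.148 ± 0.0304. The interleukin 13 decoy receptor Il13ra2 was at the edge of detection, with 6 counts over the sham group and 2 over the MI group. Its ratio of MI to sham per count of depth was 0.0676, with a 95% counting interval of 0.00667 to 0.378.

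The ligands were near absent in both groups. Il4 had 1 count over the 3 sham libraries and 0 over the 3 MI libraries, and Il13 had 0 and 2. A count of 0 over a group allows up to 0.26 CPM in sham and 0.0526 CPM in MI, counting error only. At this depth no difference in either ligand was detectable.

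Stat6 (Entrez 20852, 10:127642955-127660987) encodes the transcription factor that the receptor activates. It stood at 55.5, 56.7 and 55.7 TPM in sham and 91.4, 82.4 and 83.9 TPM in MI. All MI libraries were above all sham libraries. On the log2 scale the difference was 0.78 ± 0.08 (SE), or 1.71 times as high in MI, and 0.43 with total-count scaling. The antisense gene Nab2 overlaps it by 40 bases.

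The signalling list held 20 genes, namely Il4, Il13, Il2rg and Il13ra2 described above and kinases, adaptors, feedback inhibitors and STAT6 cofactors. Of these 17 were fitted, Il2rg included: 13 rose, 1 fell and 3 did not pass. Over all genes fitted, 36.4% rose and 36.9% fell. The median log2 fold change was 0.89, against -0.01 over all genes fitted. By the quasi-likelihood test in edgeR, with p adjusted after Benjamini and Hochberg, the adaptor Irs2 rose by 2.31 ± 0.11 on the log2 scale (adjusted p = 2.2e-09) and the kinase Jak2 by 1.89 ± 0.12 (adjusted p = 2.6e-08). Jak1 rose by 0.56 ± 0.09 (edgeR adjusted p = 0.00013), a call lost with total counts, at 0.21. The phosphatases Ptpn6 and Ptpn1, which damp Janus kinase signalling, rose by 2.85 ± 0.14 and 2.13 ± 0.10. Bcl6, a repressor that binds many STAT6 sites, rose by 1.23 ± 0.12. Irs1 was the 1 gene that fell, at -2.14 ± 0.26. Total-count scaling left 12 higher and 2 lower, with a list median of 0.54 against -0.36 over all genes, and it turned the sign of the 3 that did not pass, Jak3, Cish and Ep300.

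**Figure D2:**
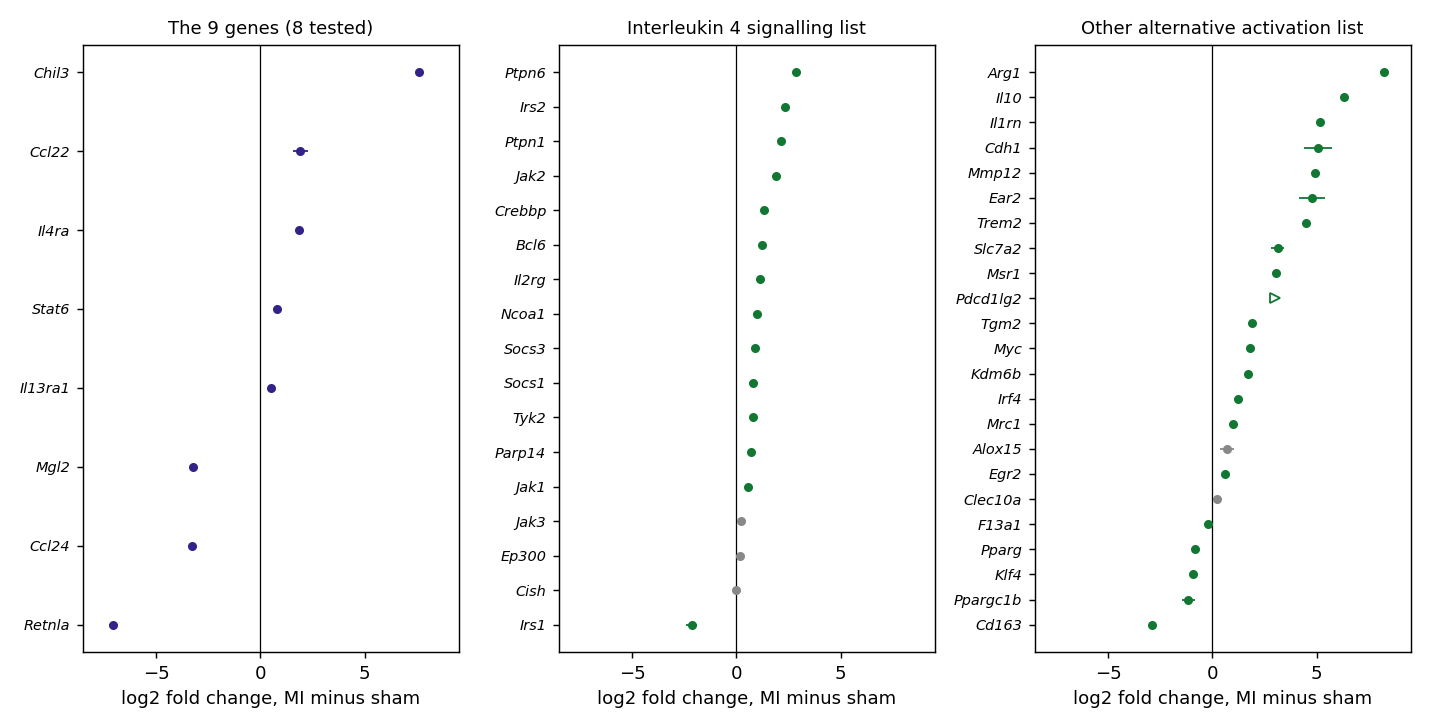
Log2 fold change, MI minus sham, with SE, for the 8 fitted genes of the 9 (left) and for the fitted genes of the signalling list (middle) and the list of other alternative activation genes (right). Grey points did not pass the threshold, and the open triangle for Pdcd1lg2, with 0 counts in sham, marks a lower bound of 3.03; the 8 genes spread from -7.04 to 7.59.

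Retnla (Entrez 57262, 16:48842609-48844461) encodes a secreted resistin-like protein and is among the most used markers of alternative activation. It measured 218, 219 and 191 TPM in sham and 0.97, 2.05 and 1.06 TPM in MI. It was abundant in every sham library and almost gone from every MI library. Its log2 fold change was -7.04 ± 0.21 (SE), 132 times as high in sham, from 632 counts over the sham group and 23 over the MI group despite the greater depth of the latter. Its resistin-family relative Retnlg, a gene of neutrophils, rose by 2.38 ± 0.23 on the log2 scale (quasi-likelihood test in edgeR, Benjamini-Hochberg adjusted p = 1.7e-06).

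Retnla is also known from airway epithelium and fat, so markers of both were summed. Of 10 lung epithelium markers listed in the table, 5 were fitted, 4 fell and 1 did not pass. Their sum was 29.2 to 32.4 CPM in sham and 2.33 to 2.70 in MI. Sftpd and Lamp3 were at 0 in sham, and Scgb3a2, Bpifa1 and Reg3g at 0 in MI. Of 6 adipocyte markers, 1, Cyp2e1, was fitted, and it fell, with a list sum of 3.6 to 6.19 CPM in sham and 1.11 to 1.43 in MI. Most of that sum was Cyp2e1 itself, at 3.70 CPM in sham and 0.702 in MI. The others had group means of 0.34 CPM or less, and no direction is read from them. Both sums moved the same way as Retnla, and their part in its difference was not tested.

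Mgl2 (Entrez 216864, 11:70130125-70137542) encodes a galactose-type lectin, CD301b, of macrophages and some dendritic cells. It stood at 219, 244 and 211 TPM in sham and 20.1, 23.9 and 20.5 TPM in MI. Every sham library was far above every MI library, although Mgl2 remained easily measured after MI. The log2 fold change was -3.25 ± 0.12 (SE), 9.53 times as high in sham. Its neighbour and paralog Clec10a, which encodes CD301a, did not pass (0.23 ± 0.17 on the log2 scale, quasi-likelihood test in edgeR, Benjamini-Hochberg adjusted p = 0.22). It changed sign with total counts, and without MI library 1 it passed as higher, at 0.39. Mgl2 therefore went from 7.71 ± 2.09 times the TPM of Clec10a in sham to 0.687 ± 0.0595 times in MI (SD, 3 libraries each, no overlap). Of the 50-base words of Mgl2 transcripts, 13.1% also occur elsewhere, mostly in Clec10a, so a small part of the reads may be divided between the 2 genes.

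Dendritic cell markers moved in both directions beside Mgl2. Of 10 such genes, 5 rose and 5 fell, and their sum was 300 to 343 CPM in sham and 246 to 268 in MI. Fscn1 and Zbtb46, the most abundant of them in sham, fell (-1.28 ± 0.10 and -2.35 ± 0.12 on the log2 scale, SE). They stood at 163 and 109 CPM in sham and 67.2 and 21.3 in MI, so the sum leans on them. No fall in dendritic cell RNA is read from that sum. Itgax, the most abundant marker in MI, rose by 4.90 ± 0.13. Of the others, named after their values were seen, Cd207 fell most, at -5.37, and Ccr7, Flt3, Xcr1 and Cd209a rose by 4.69, 3.19, 3.00 and 2.73. Their part in the difference in Mgl2 was not tested.

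Chil3 (Entrez 12655, 3:106147554-106167564) encodes the chitinase-like protein Ym1, made by alternatively activated macrophages and also by neutrophils and monocytes. It measured 2.82, 2.61 and 4.18 TPM in sham and 574, 523 and 558 TPM in MI. It was barely present in each sham library and the most abundant of the 9 genes in each MI library. Its log2 fold change was 7.59 ± 0.14 (SE), 193 times as high in MI, from 29 counts over the sham group and 27724 over the MI group. Of its 50-base words 26.9% also occur in Chil4 or Gm6522, and Chil4 itself had 0 counts in sham and 14 in MI. The related gene Chil1 rose by 5.92 ± 0.36 on the log2 scale (quasi-likelihood test in edgeR, Benjamini-Hochberg adjusted p = 2.5e-08).

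Neutrophil markers rose beside Chil3. Of 8 fitted genes 6 rose and none fell, and the list summed to 37.5 to 45.3 CPM in sham and 640 to 801 in MI. S100a9 and Csf3r went from 10.8 and 16.5 CPM to 243 and 251. Ltf and Mpo did not pass (0.26 ± 0.28 and 0.95 ± 0.41 on the log2 scale, SE). Ngp and Elane were at 0 in sham. Elane had 0.0519 CPM in MI, below the 0.26 CPM that 0 counts allow in sham, so no rise is read for it. The part of neutrophils in the difference in Chil3 was not tested.

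The 3 chemokines took 3 different courses. Ccl17 (Entrez 20295, 8:94809380-94812038), a ligand of the receptor CCR4 that attracts type 2 helper cells, was hardly detected. It measured 1.01, 0 and 1.12 TPM in sham and 0.62, 1.09 and 0.93 TPM in MI, from 2 counts over the sham group and 15 over the MI group. The groups overlapped, and the ratio of MI to sham was 1.52 with a 95% counting interval of 0.354 to 13.7, so neither a fall nor a rise was detectable at this depth.

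Ccl22 (Entrez 20299, 8:94745684-94751388), the other CCR4 ligand and a near neighbour of Ccl17 on chromosome 8, was low but measurable. It stood at 1.33, 2.49 and 0.69 TPM in sham and 5.54, 4.16 and 5.42 TPM in MI. The MI libraries were all above the sham libraries, with a wide spread in sham. On the log2 scale MI was higher by 1.91 ± 0.35 (SE), from 16 counts over the sham group and 299 over the MI group, and it ranged from 1.33 to 2.52 over the alternative settings. CCR4 itself (Ccr4) had 0 counts in sham and 2 in MI.

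Ccl24 (Entrez 56221, 5:135569935-135573123) encodes eotaxin-2, a ligand of the eosinophil receptor CCR3. It measured 49.3, 46.5 and 50.6 TPM in sham and 4.27, 4.12 and 4.55 TPM in MI. The libraries of each group lay close together and the groups far apart. The log2 fold change was -3.27 ± 0.16 (SE), 9.64 times as high in sham. Its receptor gene Ccr3 went the other way, rising by 4.55 ± 0.47 on the log2 scale (quasi-likelihood test in edgeR, Benjamini-Hochberg adjusted p = 3.2e-06). The other eotaxin fitted, Ccl11, did not pass (-0.53 ± 0.52), and Ccl26 had 1 count in sham and 0 in MI.

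Of the 7 receptors, decoys and related chemokines listed with these ligands, 5 were fitted: 3 rose, 1 fell and 1 did not pass. By the same edgeR test, Ccl7 rose by 2.50 ± 0.08 on the log2 scale (adjusted p = 1.1e-10) and Ccl5 by 4.38 ± 0.25 (adjusted p = 1.6e-08). The scavenger receptor Ackr2 fell, at -1.52 ± 0.30. Eosinophil markers were near 0 in sham, at 0.247 to 1.03 CPM summed, and reached 29.2 to 34.3 CPM in MI, with Siglecf at 21.9 CPM and the granule gene Prg2 at 0.105. Ccr3 is itself in that list, and without it the sums were 0.247 to 0.552 CPM in sham and 21.3 to 24.3 in MI, nearly all Siglecf. Siglecf is also found on other myeloid cells, and the granule genes Prg2 and Ear6 were at 0 in sham. The part of eosinophils in the Ccr3 difference was not tested.

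Ranked by mean TPM, the genes changed places between groups. In sham, Mgl2 (225 ± 17.4, SD) and Retnla (209 ± 16.1) led and overlapped each other, followed in order and without overlap by Stat6, Ccl24, Il4ra, Il13ra1 and Chil3, with Ccl22 and Ccl17 last and overlapping. In MI, Chil3 led at 551 TPM, followed without overlap by Il4ra, Stat6, Il13ra1 and Mgl2. Ccl22 and Ccl24 came next and overlapped each other, and Retnla and Ccl17 were last and overlapped. Retnla thus went from the top pair to the bottom pair, while Stat6 kept its rank.

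Other genes known from alternative activation were mostly higher. Of 24 listed, 23 were fitted: 16 rose, 5 fell and 2 did not pass, with a median log2 fold change of 1.80. Over all genes fitted, 36.4% rose, 36.9% fell and the median was -0.01. By the quasi-likelihood test in edgeR, with p adjusted after Benjamini and Hochberg, arginase 1 (Arg1) rose by 8.21 ± 0.17 on the log2 scale, from 1.05 ± 0.486 to 310 ± 5.33 CPM (SD, adjusted p = 9.3e-12). Il10, an anti-inflammatory cytokine gene, rose by 6.29 ± 0.13 and Il1rn, the interleukin 1 receptor antagonist, by 5.15 ± 0.09. The elastase gene Mmp12, the lipid receptor gene Trem2 and the scavenger receptor gene Msr1 rose by 4.92 ± 0.15, 4.50 ± 0.16 and 3.04 ± 0.12. The mannose receptor gene Mrc1 rose by 1.01 ± 0.12 (adjusted p = 1e-05). Pdcd1lg2, with 0 counts in sham and 121 in MI, stood at least 8.18-fold higher in MI, with the floor taken over the group. The 5 that fell, named after their values were seen, were Cd163, Klf4, Pparg, Ppargc1b and F13a1, at -2.90, -0.90, -0.83, -1.14 and -0.21. The call on F13a1 was lost in 9 of the alternative settings. That on Ppargc1b was lost without sham library 2 and in 3 settings where it was not fitted, and Pdcd1lg2 was not fitted in 6 settings, which include leaving out each MI library.

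Retnla, Mgl2 and Ccl24 thus stood on the other side from Arg1, Mrc1 and Il10, and Chil3 on the same side. TPM of Chil3 were 4.34, 1.54 and 2.30 times those of Arg1 in sham, where both were low, and 1.48, 1.48 and 1.54 times in MI. The ratio varied in sham and was nearly constant in MI, and the groups overlapped.

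A list of 18 classical activation genes, the contrasting inflammatory state, also leaned higher. Of 17 fitted, 13 rose, 3 fell and 1 did not pass, with a median log2 fold change of 1.81. The shares over all genes fitted were 36.4% higher and 36.9% lower, with a median of -0.01. By the same edgeR test, Il1b rose by 3.10 ± 0.09 on the log2 scale (adjusted p = 6.2e-11), Tnf by 2.50 ± 0.08 (adjusted p = 1.7e-10) and Ptgs2 by 5.66 ± 0.22 (adjusted p = 4.7e-10). The 3 that fell were Nos2, Cxcl9 and Ido1, named after their values were seen, at -1.76, -1.77 and -2.28. The medians of the alternative and classical lists were thus alike, and Socs3 stood in both the classical and the signalling list.

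Macrophage RNA itself was more plentiful in MI, with all 12 general markers higher. Lyz2, the lysozyme gene of myeloid cells, went from 1914 to 9011 CPM. The 8 resident macrophage markers summed to 1731 to 1821 CPM in sham and 1292 to 1580 in MI, and of these 7 fell and 1, Mrc1, rose. Mrc1 went from 336 to 676 CPM, so the sum hides part of the fall of the 7 others. Mrc1, Cd163 and F13a1 are also in the list of other alternative activation genes. Lyve1, Timd4 and Vsig4, named after their values were seen, were at -4.10, -3.94 and -3.76 on the log2 scale. Lyve1 is also in the lymphatic endothelial list, so its fall cannot be assigned to either cell type. The part of both shifts in the differences of the 9 genes was not tested.

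To put the genes on the scale of macrophage RNA, their CPM were divided by the summed CPM of the 12 macrophage markers and given per 100 CPM of that list. The list is a yardstick, since Il4ra, Il13ra1 and Stat6 are also made by other cells. Its sum, 19593 to 22534 CPM in MI, leans on the myeloid gene Lyz2, with a mean of 9011 CPM there. Retnla went from 1.20 ± 0.0559 in sham to 0.00187 ± 0.000825 in MI (SD, 3 libraries each), 644 times as high in sham. Mgl2 went from 3.90 ± 0.164 to 0.0868 ± 0.0083 and Ccl24 from 0.556 ± 0.0474 to 0.0122 ± 0.000936, which are 45.0 and 45.8 times as high in sham. Chil3 went from 0.0562 ± 0.0168 to 2.29 ± 0.127, 40.7 times as high in MI. By group means, Chil3 was the 1 gene of the 9 that stood higher on this scale.

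The receptor genes and Stat6 turned direction on this scale. For Il4ra the turn depends on the markers summed. Its rise of 3.63-fold was above those of Csf1r (3.07), Mertk (2.04), C1qa (3.03) and C1qc (3.22) and below the rest of the list. Il13ra1 (1.42-fold) and Stat6 (1.71-fold) rose less than every marker. Il4ra went from 2.47 ± 0.208 to 1.90 ± 0.0448 per 100 CPM, Il13ra1 from 1.14 ± 0.0931 to 0.346 ± 0.0776 and Stat6 from 2.46 ± 0.0692 to 0.899 ± 0.0624. The groups did not overlap for any of these 3 genes. Ccl22 (0.0299 ± 0.019 and 0.0248 ± 0.00381) and Ccl17 overlapped, and for Ccl22 the ratio of MI to sham was 0.828 but 1.25 without sham library 2.

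**Figure D3:**
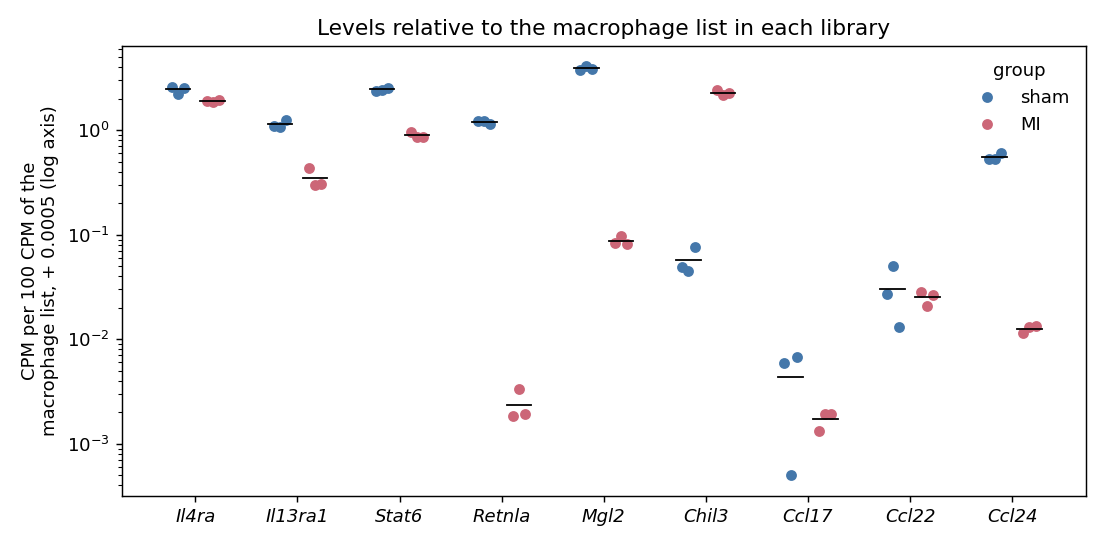
CPM of the 9 genes per 100 CPM of the 12 macrophage markers, in each sham and MI library, on a log axis after adding 0.0005; points are libraries and short lines are group means. Retnla, Mgl2 and Ccl24 lie lower in MI by more than in TPM, Chil3 lies higher, and Il4ra, Il13ra1 and Stat6 lie below their sham values.

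**Figure D4:**
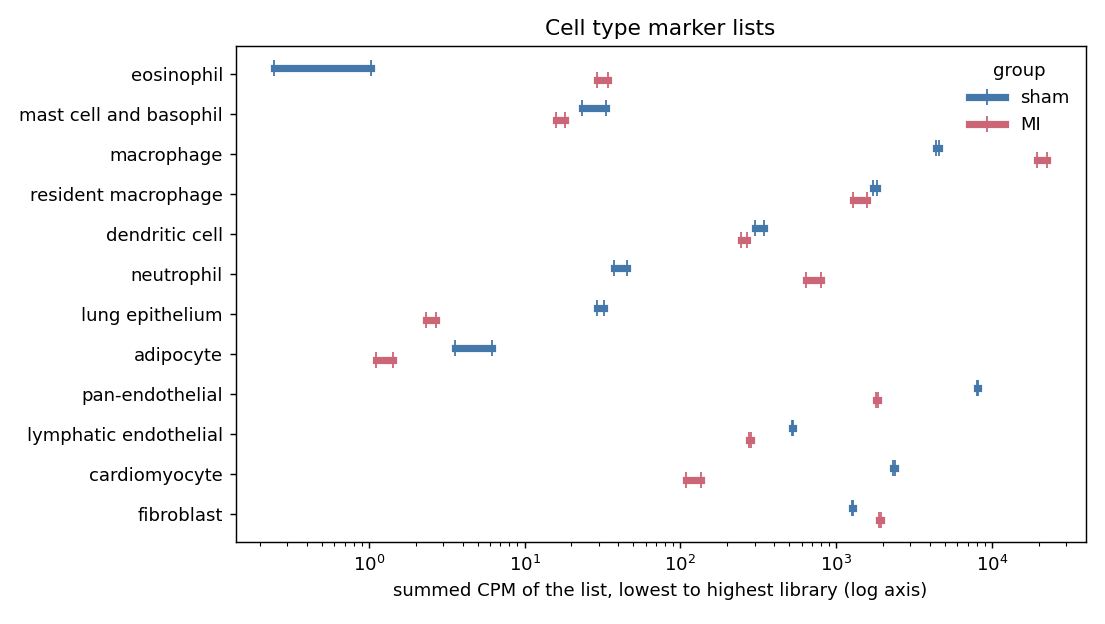
Summed CPM of each cell type marker list on a log axis; each bar runs from the lowest to the highest of the 3 libraries of a group. Macrophage, neutrophil, eosinophil and fibroblast lists lie higher in MI, and the other 8 lists lie lower; the fibroblast sum is higher through its 3 collagen genes only, and the lymphatic sum in MI is mostly Pdpn.

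Type 2 inducers and lymphocyte genes, upstream of interleukin 4 and 13, were split. Of 10 listed in the table, 8 were fitted: 3 rose, 3 fell and 2 did not pass, shares close to the 36.4% and 36.9% over all genes, with a median log2 fold change of -0.10. By the quasi-likelihood test in edgeR, with p adjusted after Benjamini and Hochberg, Il7r rose by 5.95 ± 0.25 on the log2 scale (adjusted p = 8.4e-10) and Areg by 2.45 ± 0.16 (adjusted p = 5.1e-08). Il2ra rose by 0.92 ± 0.31 (edgeR adjusted p = 0.019), a call lost in 7 of the alternative settings, total counts and leaving out sham library 1 or 2 among them. The interleukin 33 receptor gene Il1rl1 fell (-2.24 ± 0.23, edgeR adjusted p = 3.3e-06), as did Tslp and Gata3. The calls on Tslp and Gata3 were lost in 5 settings, where neither was fitted. Il5 had 0 counts in sham and 1 in MI, and the T cell gene Cd3e 1 and 0. No rise in lymphocyte RNA is read from Il7r and Areg. Mast cell and basophil markers, from cells that can make interleukin 4, summed to 23.4 to 33.1 CPM in sham and 16.0 to 18.1 in MI. Nearly all of that was Kit, also made by other cells, while Cma1 was at 0 in sham and Fcer1a at 0 in MI.

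The genes whose profiles over the 6 libraries were nearest to the extremes were looked up by Euclidean distance on log2(CPM + 0.5) around each gene's mean. Nearest to Retnla were Ahsg (1.37), Myl7 (1.37), Myl2 (1.47), Bpifa1 (1.48) and Hbb-bs (1.54), which include cardiac muscle, airway and red cell genes. Nearest to Chil3 were Adam8 (0.58), Slfn4 (0.74), Arg1 (0.79), Mefv (0.81) and Gpnmb (0.83), several of them known from myeloid cells. The 6 libraries fall in 2 groups, so genes lie near one another largely by the size of their sham to MI difference on this scale. The 0.5 CPM added shrinks that difference for genes near 0 in a group. The fitted log2 fold changes of the Retnla neighbours ran from -10.28 to -4.72.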

How the data were processed

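RNA of 6 libraries was analysed, with groups and replicate numbers taken from the sample titles. The authors deposited estimated counts (not whole numbers), FPKM, TPM and a scaled count, a signal value, for each gene and library; FPKM and the scaled count were not used. Reads were mapped to GRCm38 per the series' design text. The submitters' processing notes name GRCm38.p6 and, with no role, Agilent Feature Extraction 9.1. What aligner, counting program, annotation or strand setting was used is not given in the sources used here. Left out were the table's 8 group-average columns.

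Estimated counts were rounded to whole numbers and analysed with edgeR 4.0.16 in R 4.3.3. After filterByExpr (13370 of 17714 genes) and TMM scaling, a quasi-likelihood fit compared the groups, without covariates, and a Benjamini-Hochberg adjusted p below 0.05 was the threshold. Each SE is the absolute log2 fold change over sqrt(F). CPM use the TMM library size, and TPM are the deposited values. The fit was also run on simulated counts in which few genes changed, unlike these data, so that run does not test the TMM scaling. Alternatives used DESeq2 1.42.0, limma 3.58.1 on TPM, other scalings and filters, thinned MI counts, a replicate block and leaving out each library.

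The 9 genes and all lists were chosen with earlier results of these data known. Named were the 9 genes, up to 6 called genes with the smallest p from each pathway list, Il4, Il13, Il2rg, Il13ra2, Jak1, Arg1, Mrc1, Clec10a, Chil4, Ccr3 and Ccr4, the 2 most abundant markers of each cell type list in each group and the 5 nearest profiles. Of these markers, those of lists given mainly as a sum are not all printed. Prox1, Prg2, Pdcd1lg2, Ltf, Mpo and genes listed at 0 were named for their place in a count. Positions and promoter windows come from RefSeq tables of GRCm38.p6, and shared 50-base words from GENCODE M21 transcripts.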

Additional observations from a re-analysis of the deposited data

How the results depend on the processing

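All 8 fitted genes of the 9 kept their direction in the alternatives run. Il13ra1 moved most in proportion, from 0.50 to 0.15 with total counts. With that scaling and with each limma fit on TPM, 4 of the genes counted as higher in place of 5, without Il13ra1. Same-numbered sham and MI libraries deviated with correlations of -0.0481, -0.0208 and 0.0160. Sham libraries differed little beyond counting noise (chi-square 1.55 to 1.79 per gene), so low correlations cannot exclude a shared batch. The replicate block called 9635 genes against 9801 without it, changed no direction among the 8 and lost F13a1; leaving out each library gave 8596 to 9925 genes. Total counts called 3549 genes higher and 6628 lower (34.9% higher) against 4861 and 4940 (49.6%) with TMM, and moved the median of all genes from -0.01 to -0.36. The signalling list had 2 genes lower, in place of 1, with DESeq2, without a filter and with limma on log2(TPM + 1) without a filter (Il13ra2 added) and with total counts (Cish added). The other alternative activation list had 3 to 5 lower when each library was left out, 3 without sham library 2. The type 2 list had 1 lower, in place of 3, with the stricter filter and with MI thinned to sham depth, and 1 to 3 when each library was left out, 1 without MI library 2 or 3. Ccl22 per macrophage marker CPM turned from 0.828 to 1.25 without sham library 2, in a range of 0.642 to 1.25 when each library was left out. The cause of these changes was not tested, except that Tslp and Gata3 were not fitted where the type 2 count fell. The sham depth limits what can be said of Ccl17, Ccl22, Il4, Il13 and Ccr4.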
